A study of Mus musculus with 8 samples.

Results

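The polo-like kinases are a family of serine/threonine kinases of the cell cycle and the stress response. Their genes were taken by symbol from a table of nascent transcription in mouse induced pluripotent stem cells. Plk1, Plk2, Plk3 and Plk4 were all present, 4 of the 14861 genes in the table, and all 4 passed the minimum mean signal of 0.5. They were selected on the measured signals of Plk1 and Plk2 in the 4 columns, which moved in opposite ways in these same data, so their values are given as a description, with no test.

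The cells were a clonal line carrying FUCCI2, a fluorescent reporter of cell cycle phase, and all groups grew on irradiated feeders in KO-DMEM with serum, LIF and inhibitors of MEK and GSK3. Mitotic cells had been exposed to nocodazole, which blocks spindle microtubules, at 200 ng/ml for 6 h and were collected by shake-off. Released cells had the same exposure and then spent 1 h (early G1) or 3 h (late G1) in fresh medium, while asynchronous cells received no drug. PRO-seq reads RNA polymerases caught in the act of transcription, so the signal of a gene reflects its ongoing synthesis and not its stored mRNA. The labels list 8 libraries, 2 per group, but the table holds 1 combined value per gene and group, so no difference below has a replicate check. The columns do not name the release times, and early G1 was taken as 1 h and late G1 as 3 h from what the words mean. Since every mitotic and released cell had met nocodazole and no asynchronous cell had, drug exposure and cell cycle stage cannot be told apart against asynchronous cells.

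PLK1 drives entry into mitosis, centrosome maturation, spindle assembly and cytokinesis, and the anaphase-promoting complex marks it for destruction as cells leave mitosis. PLK4 starts the duplication of centrioles. PLK2 and PLK3, first known as Snk and Fnk, are made on growth factor or stress signals, and both genes are known targets of p53. Transcription of Plk1 normally builds up in G2 through promoter elements named CDE and CHR, the latter bound by complexes that hold MuvB proteins. The table places the start of Plk1 at position 122159507 on the plus strand of chromosome 7 in GRCm38, transcript ENSMUST00000206470. Plk2 starts at 110395048 on chromosome 13, plus strand (ENSMUST00000224489), Plk3 at 117133944 on chromosome 4, minus strand (ENSMUST00000126135), and Plk4 at 40800054 on chromosome 3, plus strand (ENSMUST00000203295).

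The promoters of Plk1 and Plk2 are shown because these genes stood at opposite ends of the family. Each window runs from 250 bases before to 50 bases after the RefSeq start in GRCm38.p6, on the plus strand. In Plk1, chr7:122159185-122159484, the capitals mark a CCAAT box and the CHR letters TTTGAA. In Plk2, chr13:110394794-110395093, they mark the cAMP response element TGACGTCA, the TATA-like run TATTTAA and a separate half-site of the response element, read as CGTCA on this strand.
Plk1: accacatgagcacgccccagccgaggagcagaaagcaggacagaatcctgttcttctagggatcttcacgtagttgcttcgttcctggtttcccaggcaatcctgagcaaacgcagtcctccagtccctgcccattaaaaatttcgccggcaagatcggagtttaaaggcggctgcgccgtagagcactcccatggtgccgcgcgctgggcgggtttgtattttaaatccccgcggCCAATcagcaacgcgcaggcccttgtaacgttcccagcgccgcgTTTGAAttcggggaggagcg
Plk2: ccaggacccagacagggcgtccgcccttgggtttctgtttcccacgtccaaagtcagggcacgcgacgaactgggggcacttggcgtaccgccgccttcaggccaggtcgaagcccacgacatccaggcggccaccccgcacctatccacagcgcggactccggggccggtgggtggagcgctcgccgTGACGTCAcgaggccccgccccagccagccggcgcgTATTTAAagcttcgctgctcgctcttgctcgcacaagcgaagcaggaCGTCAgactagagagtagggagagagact

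Motifs were searched on both strands of 32851 RefSeq windows of the same length, 4 of which belonged to the members. TTTGAA occurred in 17.9% of all windows and, among the members, in that of Plk1 alone, at 30 to 35 bases after the RefSeq start and 42 to 37 bases before the start given in the table. CCAAT occurred in 37.4% of windows and among the members in that of Plk1 alone. The full TGACGTCA was in 1.79% of windows and in that of Plk2, 62 to 55 bases before the RefSeq start. The half-site TGACG, which the full element also holds, was in 20.8% of windows. It matched 3 times in Plk2, with 2 of these inside the full element, 2 times in Plk3 and 1 time in Plk4. TATTTAA (4.51% of windows) was in Plk2, 26 to 20 bases before the start, and in Plk4, 137 to 131 bases before it. TATAAA (13.6%), TTCGAA (1.56%), the CArG box (1.63%) and the p53 half-site (8.36%) had no match in the 4 windows. GGGCGG, the GC box, was in 35.7% of windows and in all members except Plk4. All 4 members had a CpG content above that of the median window. Their observed over expected CpG ratios were 1.00 for Plk1, 0.964 for Plk4, 0.941 for Plk2 and 0.762 for Plk3, against a median of 0.384 over all windows. Of all windows 94.2% had a lower ratio than Plk1 and 75.9% a lower one than Plk3. The CpG ratio was not set against the genes of the table alone. The windows of Plk1 and Plk4 end before the start that the table gives for them, which lies 72 and 103 bases downstream of the RefSeq start. Over the 11496 genes of the table with a window, which are the closer background for the members, TTTGAA was in 14.1%, CCAAT in 42.0%, TGACG in 33.0% and TGACGTCA in 3.37%. A match is a description of the letters and not a site of binding.

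Plk1 had a PRO-seq signal of 0.844 in mitotic cells, 7.17 in early G1 cells, 5.38 in late G1 cells and 51.1 in asynchronous cells. It was highest by far in asynchronous cells and stayed low at both times after release. Mitotic cells had 1.65% of the asynchronous signal, early G1 cells 14.0% and late G1 cells 10.5%. The order of its levels was asynchronous, early G1, late G1 and mitotic, and the step between early and late G1 was within 2-fold (log2 ratio -0.41).

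Plk2 had a signal of 34.3 in mitotic cells, 239 in early G1 cells, 198 in late G1 cells and 36.1 in asynchronous cells. Mitotic cells thus kept 95.0% of the asynchronous signal, and both released groups stood far above both others. Early G1 reached 662% and late G1 549% of the asynchronous level. The order was early G1, late G1, asynchronous and mitotic, with the first pair and the last pair each within 2-fold.

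Plk3 had a signal of 1.12 in mitotic cells, 13.9 in early G1 cells, 24.0 in late G1 cells and 17.7 in asynchronous cells. It was the only member with its highest value in late G1. Mitotic cells had 6.30% of the asynchronous signal, early G1 cells 78.6% and late G1 cells 136%. The 3 groups other than mitosis lay within 2-fold of each other.

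Plk4 had a signal of 0.722 in mitotic cells, 21.3 in early G1 cells, 11.3 in late G1 cells and 12.4 in asynchronous cells. It peaked in early G1 and had come back to near the asynchronous level in late G1. Mitotic cells had 5.83% of the asynchronous signal, early G1 cells 172% and late G1 cells 91.6%. As for Plk3, the 3 groups other than mitosis lay within 2-fold of each other.

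**Figure D1:**
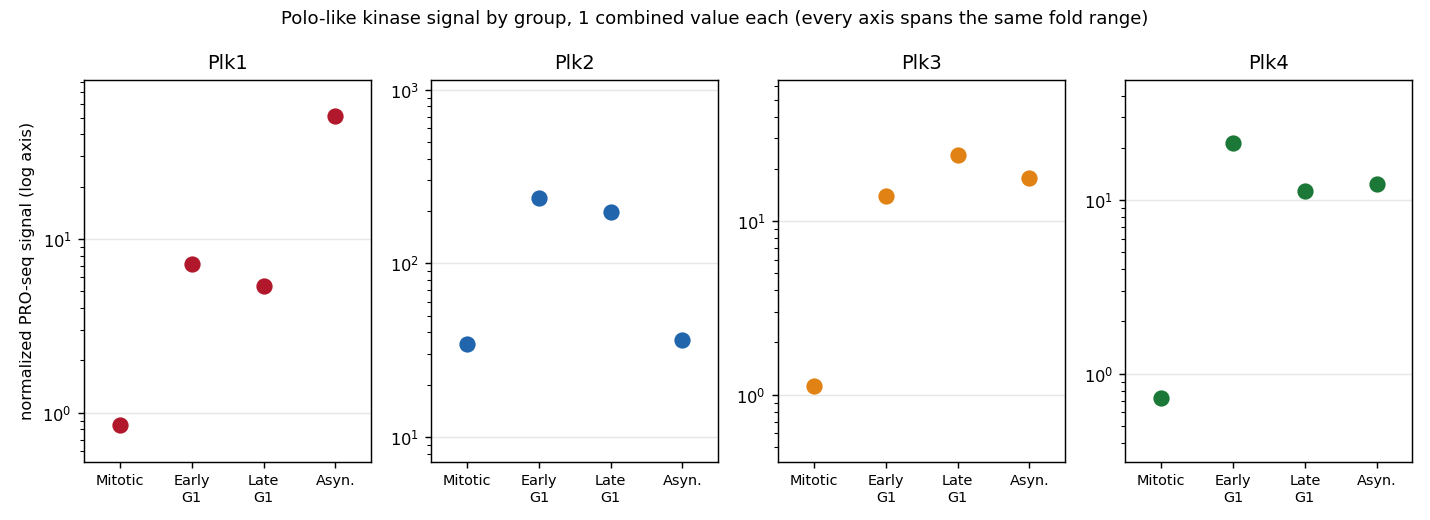
Normalized PRO-seq signal (log axis, which spans the same fold range in each panel) of each polo-like kinase gene in the 4 groups; each point is the authors' 1 combined value. Plk1 is highest in asynchronous cells (51.1), Plk2 in early G1 (239), Plk3 in late G1 (24.0) and Plk4 in early G1 (21.3).

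In the comparisons that follow, a ratio is log2 of (signal + 0.1) in one group over that in another, and a gene is called higher or lower where the ratio is at least 2-fold. The added 0.1 makes the ratio understate the change of weak genes. Genes below the minimum mean signal, or listed at 0 in a column used, were left out. The percentages of the asynchronous signal given above carry no such addition.

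Mitotic cells were first set against asynchronous cells. Plk1, Plk3 and Plk4 were at least 2-fold lower and Plk2 was not, at 3 of 4 members against 99.1% of the 14444 genes tested. No member was at least 2-fold higher, nor were more than 0.0208% of genes. The median gene had a log2 ratio of -3.89. Plk3 (-3.87) and Plk4 (-3.93) lay next to it, whereas Plk1 (-5.76) lay 1.87 below it and Plk2 (-0.074) lay 3.82 above it. Only 31 genes, 0.215% of those tested, had a higher ratio than Plk2, and 0.678% had a lower one than Plk1. These signs depend on how the columns were scaled. With the columns set to equal medians 1380 genes were higher and 1011 lower, in place of 3 and 14321, and with quantile normalization 1237 and 972. Under both, Plk1 stayed lower (-1.64 and -1.63), while the ratios of Plk2 (4.19 and 3.72), Plk3 (0.28 and 0.22) and Plk4 (0.17 and 0.14) turned positive.

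From mitosis to early G1 all 4 members were at least 2-fold higher, as were 99.3% of the 14456 genes tested, with 0.00692% lower. Plk4 had the largest ratio of the family (4.70), above the median gene at 4.21. Plk3 (3.53), Plk1 (2.95) and Plk2 (2.80) lay below it. Plk1 and Plk2 thus had like ratios from mitotic levels that differed relative to their own asynchronous levels. With equal medians 715 genes were higher and 1982 lower, in place of 14360 and 1, and with quantile normalization 800 and 1283; there the ratios of Plk1, Plk2 and Plk3 turned negative. From mitosis to late G1 all 4 members were again higher (99.7% of genes), with Plk3 at 4.31, Plk4 at 3.80, Plk1 at 2.54 and Plk2 at 2.53. All 4 turned negative when the medians were set equal (Plk3 at -0.047), and all but Plk3 with quantile normalization. With equal medians 1476 genes were higher and 1265 lower in place of 14423 and 0 (1230 and 1472 with quantile normalization).

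Between early and late G1 no member differed by 2-fold, against 15.1% of 14699 genes that were higher in late G1 and 7.52% that were lower by that much. Plk3 had a log2 ratio of 0.78 and Plk4 of -0.90, and the median gene one of -0.081. Plk2 stood at -0.27. The signs of all 4 members stayed with equal medians (2557 genes higher and 763 lower, in place of 2226 and 1106) and with quantile normalization (1583 and 1212).

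Against asynchronous cells, Plk2 was at least 2-fold higher in early G1 (log2 ratio 2.72) and Plk1 at least 2-fold lower (-2.81). Plk4 (0.78) and Plk3 (-0.34) were within 2-fold. Over the 14661 genes tested, 17.7% were called higher and 9.53% lower, and the median gene stood at 0.30. In late G1 the same calls were made: Plk2 at 2.45 and Plk1 at -3.22, with Plk3 at 0.44 and Plk4 at -0.13. Of 14695 genes 16.9% were called higher and 5.14% lower, with the median gene at 0.21. Only 13 genes had a lower ratio than Plk1 in late G1, and 2.51% had a higher one than Plk2. Both comparisons use the same asynchronous column. With equal medians, Plk1 stood at -3.13 in early G1 and -3.43 in late G1, and Plk2 at 2.40 and 2.25. The genes called higher and lower then numbered 1277 and 2181 in early G1, in place of 2596 and 1397, and 1900 and 1162 in late G1, in place of 2483 and 755. With quantile normalization they numbered 1364 and 1638, and 1625 and 1472.

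**Figure D2:**
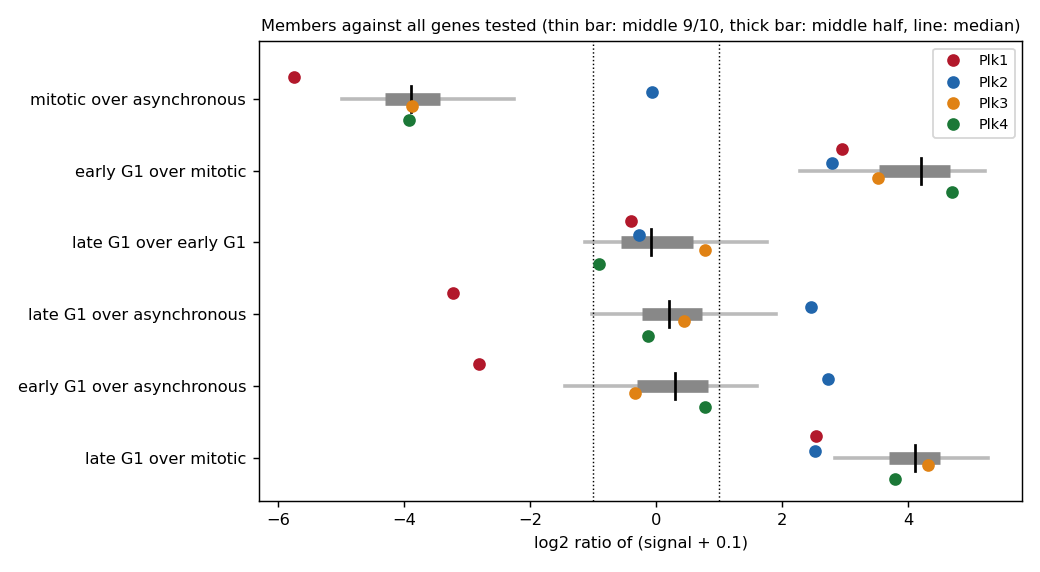
Log2 ratio of (signal + 0.1) of each member in the 6 comparisons (points), with the 5th to 95th percentile (thin bar), the 25th to 75th percentile (thick bar) and the median (black line) of all genes tested; dotted lines mark 2-fold. Plk1 and Plk2 lie outside the thin bars on opposite sides against asynchronous cells in mitosis (-5.76 and -0.074), early G1 (-2.81 and 2.72) and late G1 (-3.22 and 2.45), on the authors' scaling; with equal medians Plk2, Plk3 and Plk4 turn positive in mitosis over asynchronous.

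The ratio of one member to another within a column is free of any factor that multiplies the whole column and, set against the asynchronous column, of gene length. Relative to asynchronous cells, Plk2 gained on Plk1 57.5-fold in mitosis, 47.1-fold in early G1 and 52.1-fold in late G1. This pair was chosen for its opposite values, so the like size of these folds is a description only. The mitotic fold rests on a Plk1 signal of 0.844. Plk3 gained on Plk1 3.81-fold, 5.60-fold and 12.9-fold in the same 3 groups, so that shift was larger at each later time. Plk4 gained on Plk1 3.53-fold, 12.2-fold and 8.69-fold. Plk4 against Plk3 stood at 0.925-fold in mitosis, 2.18-fold in early G1 and 0.675-fold in late G1. These folds carry no pseudocount and, like all values here, have no replicate error.

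The authors' table also gives each gene 1 of 4 temporal classes, and how they were made is, in the sources used here, not given. Plk1 was classed Gradual, a class of 2296 genes (15.4% of the table). The median gene of that class had 49.2% of its asynchronous signal in early G1 and 64.5% in late G1, and Plk1, at 14.0% and 10.5%, lay far below both. Plk1 was also among the 589 Gradual genes (25.7%) whose early G1 signal was above that of late G1. Plk2 and Plk4 shared the class Early_Spike (4991 genes), whose median gene had 191% in early G1 and 127% in late G1. Plk3 was classed Transient, where the median gene had 107% and 210%.

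Likeness to other genes was measured as the distance between log2(signal + 0.1) values over the 4 columns, each gene centred on its own mean. The 7089 genes compared had a mean signal that reached that of the median gene. Genes with a predicted or clone name, such as Gm or Rik symbols, were left out. Nearest to Plk1 was Samd1 (distance 0.073), which encodes a protein that binds unmethylated CpG islands. Its signal was 4.45 in mitotic, 37.3 in early G1, 26.7 in late G1 cells and 258 in asynchronous cells. Lrrc26 (0.48), the gene of a potassium channel subunit, and Gpr62 (0.66), the gene of an orphan receptor, followed. Nearest to Plk2 was Coq10b (0.22), the gene of a coenzyme Q binding protein, with 3.36, 29.0, 23.5 and 4.19 in the same order. Tnfrsf4 (0.67), the gene of a receptor of the TNF family, and Msc (0.71), which encodes musculin, came next.

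Plk3 and Plk4 had closer company. Dmap1 (0.041), Vwa1 (0.077) and Chmp1b (0.084) were nearest to Plk3, and Slc35b2 (0.019), Bptf (0.049) and Taok1 (0.064) to Plk4. Dmap1 encodes a subunit of histone acetylation complexes and Bptf one of a chromatin remodelling complex. Among the members the closest pair was Plk3 and Plk4 (1.23) and the farthest Plk1 and Plk2 (4.88). With 4 columns such likeness is a description of shape and no more.

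**Figure D3:**
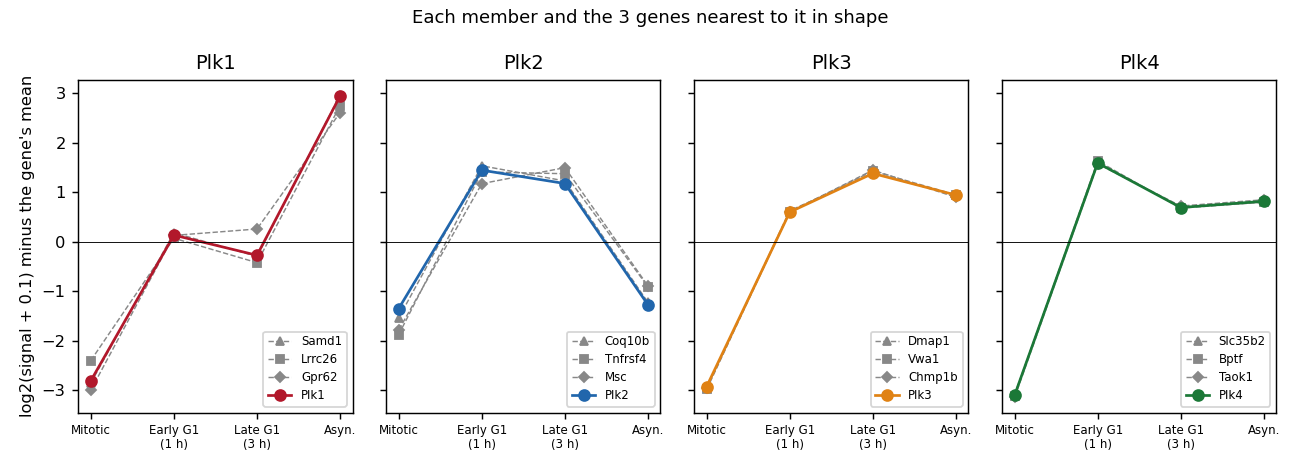
Log2(signal + 0.1) minus each gene's own mean over the 4 groups, for each member (coloured) and the 3 genes nearest to it in shape (grey). The nearest genes lie at distances of up to 0.084 from Plk3 and 0.064 from Plk4, while those of Plk1 and Plk2 reach 0.66 and 0.71.

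The genes that switch cells into mitosis and activate PLK1 were lower together with it in part. Of 14, 5 were at least 2-fold lower in late G1 than in asynchronous cells and none higher, against 5.14% and 16.9% of all genes. The median log2 ratio was -0.57 against 0.21 for all genes. Ccnb1, which encodes cyclin B1, had 4.05 in mitotic, 22.7 in early G1, 17.2 in late G1 cells and 67.4 in asynchronous cells. Aurka, whose product activates PLK1, had 1.71, 21.2, 13.6 and 48.7, and the phosphatase gene Cdc25c 0.454, 5.85, 2.11 and 8.55. Bora, the cofactor of Aurora A in that step, stood at -0.55 and within 2-fold. None of the 14 had a ratio as low as Plk1.

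Genes of proteins that PLK1 docks on or phosphorylates showed the same lean. Of 24, 10 were at least 2-fold lower in late G1 and none higher (median -0.68), and in early G1 6 were lower and 1 higher (median -0.41). Of all genes 5.14% were lower and 16.9% higher in late G1, and 9.53% and 17.7% in early G1. The kinesin genes Kif23 (-2.29) and Kif2c (-1.80) and the spindle assembly gene Tpx2 (-1.93) were the lowest in late G1. Of this list 12 of 24 were classed Gradual like Plk1, against 15.4% of the table. TTTGAA was in the windows of 10 of the 18 genes with one in this list, against 14.1% of the table's genes with a window. The other lists, all small, were above that share too, at 18.8% to 40.0%, the last being 2 of 5 feeder cell markers. Of the other motifs counted by list, CCAAT was in 14 of these 18 windows, TGACG in 4 and TGACGTCA in 1. The table's shares were 42.0%, 33.0% and 3.37%. CCAAT was in 8 of 9 windows of the mitotic entry list.

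The list of anaphase-promoting complex activators and genes that remove PLK1 had 4 of 7 lower in late G1 and none higher (median -1.10). In early G1 2 were lower and 1, Cul3 (1.43), higher, with a median of -0.16. The shares of all genes were 5.14% lower and 16.9% higher in late G1, and 9.53% and 17.7% in early G1. Cdc20 stood at -1.86, and Ube2c and Ube2s, which encode ubiquitin-conjugating enzymes of the complex, at -1.65 and -1.37. Fzr1, the gene of the activator CDH1 that targets PLK1 in G1, stood at -1.10. The transcription factors of the G2/M programme did not share the low values. Of 12 genes, 1 was higher in late G1 and none lower, against 16.9% and 5.14% of all genes. The median was 0.095, or -0.11 with equal medians and -0.10 with quantile normalization. The higher gene was Rbl2, which encodes the pocket protein p130 (1.39). Lin37, a MuvB subunit gene, stood at -0.55 and E2f5 at 0.49.

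Most centriole duplication genes around Plk4 stayed within 2-fold of the asynchronous level. Of 20, 2 were higher by more in late G1 and none lower, against 16.9% and 5.14% of all genes, and the median was -0.00044 against 0.21. The higher genes were Ccp110, which encodes a centriole cap protein (1.55), and Cep44 (1.20), which was listed at 0 in mitosis. Cep120 stood at 0.88. In early G1, where Plk4 peaked, 3 were higher and none lower, against 17.7% and 9.53% of all genes. The early G1 median was 0.30, equal to that of all genes. With equal medians these counts became 1 higher in late G1 and 1 in early G1. Over all genes 1900 of 14695 and 1277 of 14661 were then higher. With quantile normalization 1 was higher and 2 were lower in late G1, against 1625 and 1472 of all genes. The partners that load or bind PLK4 on centrioles, Cep152 (-0.17), Cep192 (-0.63) and Stil (-0.53), were within 2-fold in late G1.

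The p53 targets lay on the side of Plk2. Against asynchronous cells, 17 of 25 were called higher in early G1 and 13 in late G1, and none was lower in either (medians 1.38 and 1.07, or 1.06 and 0.87 with equal medians). Of all genes 17.7% were higher and 9.53% lower in early G1, and 16.9% and 5.14% in late G1. In mitosis their median was -2.71 against -3.89 for all genes. All 25 were at least 2-fold lower than in asynchronous cells, as were 99.1% of all genes, and Plk2 was not. With equal medians 14 of the 25 were higher, against 1380 of the 14444 genes tested. In late G1 the death receptor gene Fas stood at 3.89, Mdm2, whose product degrades p53, at 2.90 and Perp at 2.76. Plk3, also a known target, stayed within 2-fold of the asynchronous level at both times. This list is known from earlier results of these data to stand high, so it is no independent evidence of a direction. The part of nocodazole exposure in these values was not tested.

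Immediate early genes, with which Plk2 and Plk3 share induction by serum, did not lean one way. Of 22, 5 were higher and 2 lower in early G1 and 4 higher and 1 lower in late G1 (medians 0.33 and 0.31). These counts are near the background, where 17.7% of all genes were higher and 9.53% lower in early G1, and 16.9% and 5.14% in late G1. With equal medians the counts were 2 and 2, and 4 and 3. Over all genes they were then 1277 and 2181 of 14661 in early G1, and 1900 and 1162 of 14695 in late G1. Ier3 (-3.16), which limits stress signalling, was the low gene in late G1, and the transcription factor genes Atf3 (2.51) and Fos (1.68) were among the high ones. In mitosis the list's median was -3.13, above that of all genes. All of its 22 members were at least 2-fold lower, as were 99.1% of all genes, and Plk2 was above every one of them. With equal medians 11 of the 22 were higher and 1 lower, against 1380 and 1011 of the 14444 genes tested.

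**Figure D4:**
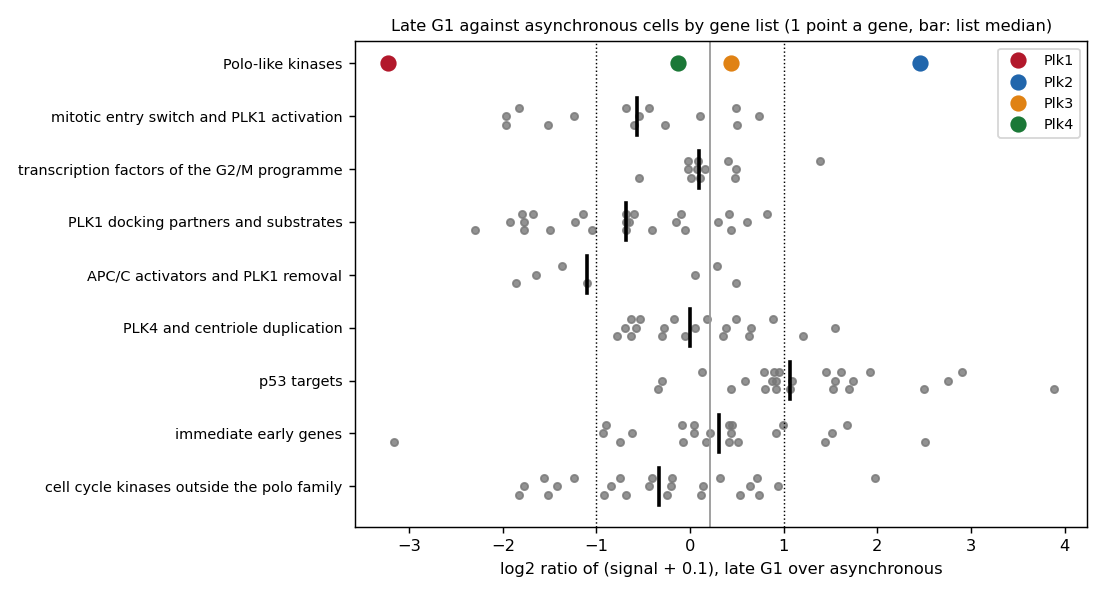
Log2 ratio of (signal + 0.1) in late G1 over asynchronous cells for the 4 polo-like kinase genes (coloured) and for each gene of 8 lists (grey points, black bar at the list's median); dotted lines mark 2-fold and the grey line the median of all genes (0.21). Plk1 (-3.22) lies below every gene of the lists of its partners, Plk2 (2.45) lies among the highest p53 targets, and Plk3 (0.44) and Plk4 (-0.13) lie near the grey line; the median of the G2/M transcription factors (0.095) turns negative with equal medians.

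Neighbouring genes bear on which gene a signal belongs to, since the sources used here do not say whether strand was used to assign reads. Ern2, an endoplasmic reticulum stress kinase gene on the opposite strand, ends 8 bases from the end of Plk1 in RefSeq. Its signal was 1.14 in mitotic, 5.98 in early G1, 3.28 in late G1 cells and 22.4 in asynchronous cells, and it too was classed Gradual, with 26.7% and 14.7% of the asynchronous signal in early and late G1. Dctn5, the neighbour on the other side, had 144% and 78.2%. The part of either gene's signal in the other was not tested. Plk3 and Tctex1d4 overlap tail to tail by 84 bases, and Tctex1d4 was listed at 0 in mitosis and had 130% and 197% in early and late G1.

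Plk2 was isolated. The next genes in the table, Pde4d and Gpbp1, start 1134394 and 1095063 bases away, and they kept 5.40% and 5.99% of their asynchronous signal in mitosis against 95.0% for Plk2. Plk4 lies between Hspa4l, 54672 bases away, and Mfsd8, 46762 bases away. Mfsd8 had 159% and 97.9% of its asynchronous signal in early and late G1, and Hspa4l 260% and 288%.

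The labelled cell type was checked on markers. Of 12 pluripotency markers 11 were in the table, with summed signals of 61.4 in mitotic, 1492 in early G1, 1329 in late G1 cells and 1341 in asynchronous cells, none at 0. Of 20 fibroblast markers for the feeder cells 12 were in the table, with sums of 7.27, 197, 172 and 118, and Twist1 was at 0 in mitosis. The fibroblast sum was therefore 168% of the asynchronous sum in early G1 and 146% in late G1, in the groups where Plk2 was high. Fn1 (105.9 against 53.4) and Tagln (47.2 against 23.5) made up most of the difference in early G1. The median marker signal was 5.30 in asynchronous cells, lower in early G1 (2.22) and higher in late G1 (7.16). In early G1 5 of the 12 were at least 2-fold higher, led by Twist1 (1.84) and Pdgfra (1.40). In the same group 3 were lower (Pdgfrb at -1.58, Thy1 at -2.04 and Col1a1 at -1.42). In late G1 4 were higher (Snai2 at 2.8, Pdgfra at 2.73, Twist1 at 2.25 and Loxl1 at 1.25) and 1, Thy1 (-1.02), lower. Of all genes 17.7% were higher and 9.53% lower in early G1, and 16.9% and 5.14% in late G1. The part of feeder cells in the values of Plk2 was not tested. Fewer cells of a type and less transcription per cell cannot be told apart in such bulk samples. Library depth is unknown. The columns sum to 16863 in mitosis and between 309140 and 361200 in the others.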

How the data were processed

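The file holds a normalized PRO-seq signal per gene, deposited by the authors as 1 column per group that combines 2 libraries. Per the submitters' processing notes, the tools were SAMtools, Picard, Bowtie2 and cutadapt, and the build GRCm38 (mm10). The sources used here do not give versions, gene assignment, use of strand or scaling. The authors also deposited a temporal class per gene, another kind of value (a text label). The members and gene lists were chosen with earlier results of these data known.

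Log2 ratios of (signal + 0.1) were computed over all genes with a mean signal of at least 0.5 (14814 of 14861), leaving out genes listed at 0 in a column used. With 1 value per group no test, error or p-value could be had, so the planned limma fit was not run and a 2-fold threshold was used. The code for the calls was run on simulated data without noise, with planted changes larger than the threshold. Such a run checks the code alone and not the calls on these data. Named genes are the 4 members, the 3 per list with the largest ratio in size of late G1 over asynchronous cells, the 3 nearest in shape to each member and its neighbours on either side, of which 1 is not reported here. Bora, Fzr1, Cep152, Cep192, Stil, Cul3 and the fibroblast markers with values were added after their values were seen. Motif letters were chosen with the member sequences in view. Sequences and gene spans are from RefSeq on GRCm38.p6, and all 4 members matched by symbol. Alternatives were a pseudocount of 0.02 or 0.5, equal medians, quantile normalization, no filter and a minimum mean of 2.5. Python 3.11.15, numpy 2.4.6, pandas 2.3.3 and matplotlib 3.10.9 were used.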

Additional observations from a re-analysis of the deposited data

How the results depend on the processing

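No paired analysis was possible because the table holds 1 combined column per group, and for the same reason no replicate could be left out and no replicate block could be fitted. Of 144 ratios of members under alternative settings, 122 kept their direction and their side of 2-fold. The other 22 came from the scaling of the mitotic column. In mitosis over asynchronous cells, equal medians and quantile normalization gave 4.19 and 3.72 for Plk2, 0.28 and 0.22 for Plk3 and 0.17 and 0.14 for Plk4. In early G1 over mitosis they gave -1.49 and -1.39 for Plk1, -1.79 and -1.23 for Plk2, -0.95 and -0.94 for Plk3, and 0.29 and 0.23 for Plk4. In late G1 over mitosis they gave -1.78 and -1.91 for Plk1, -1.94 and -1.36 for Plk2, -0.047 and 0.044 for Plk3, and -0.50 and -0.48 for Plk4. Both settings remove the general difference between columns by construction. The number of genes at least 2-fold changed became 2391 and 2209 in mitosis over asynchronous cells, 2697 and 2083 in early G1 over mitosis, and 2741 and 2702 in late G1 over mitosis. The comparisons of early and late G1 with asynchronous cells, and with each other, kept every call on the members under the 6 settings. The change of the Plk2 to Plk1 ratio stayed between 5.19 and 5.90 on the log2 scale over its 15 alternatives, of which the 3 without a pseudocount were chosen after seeing the data. A factor that multiplies a column cancels in this ratio by construction, and the pair was chosen for its opposite values, so the narrow range is no sign of stability. With a minimum mean of 2.5, the genes higher in late G1 than in early G1 numbered 1255 and those lower 972. Depth is unknown, so no counting limit can be given, and the mitotic signals of Plk1, Plk3 and Plk4 are small.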

Other observations

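The fifth gene of the family, Plk5, was also in the table. It encodes a protein that has lost kinase activity and is known mainly from the brain. Its signal was 0.0631 in mitotic, 1.47 in early G1, 5.48 in late G1 cells and 1.32 in asynchronous cells. It was thus at least 2-fold higher in late G1 than in early G1 (log2 ratio 1.83) and than in asynchronous cells (1.98), which none of Plk1, Plk3 and Plk4 was in either comparison. It was classed Transient, like Plk3.

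Other kinases of cell division lay mostly below the median gene in late G1 over asynchronous cells, with some above it. Of 24 listed kinase genes, Plk5 included, 6 were at least 2-fold lower in late G1 than in asynchronous cells and 1, Plk5, higher, with a median log2 ratio of -0.33 against 0.21 for all genes, of which 5.14% were lower and 16.9% higher. With equal medians 8 were lower, against 1162 of the 14695 genes tested. Aurka stood at -1.83 and the checkpoint kinase gene Bub1 at -1.78. Of the 24, 9 were classed Gradual, against 15.4% of the table. This list shares genes, Aurka and Bub1 among them, with the lists of mitotic entry and of PLK1 substrates, so it is not separate from those. Aurkb (-1.56) and Nek2 (-1.42), named after their values were seen, were also lower.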
